A study of Rattus norvegicus with 18 samples.

Results

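The genes described here were AMPA receptor subunits and auxiliary proteins, chosen by name as the 4 pore-forming subunits (Gria1, Gria2, Gria3, Gria4), 3 transmembrane AMPA receptor regulatory proteins or TARPs (Cacng2, Cacng3, Cacng8), 2 cornichons (Cnih2, Cnih3) and Shisa9. Of these 10 genes, 9 had a row under their symbol among 32623 listed genes, and all 9 passed the filter on low counts that left 15703 genes for testing. Shisa9, which encodes a transmembrane protein that modulates receptor desensitization, was not analysed here. RNA-seq was performed on the prefrontal cortex (PFC) of 18 Sprague Dawley rat pups at postnatal day 14 (P14), and every library came from 1 pup. The 6 saline (SAL) pups were born to dams given saline. In the postnatal oxycodone (PNO) group, the dams of 6 pups received 15 mg/kg/day oxycodone (oxy) by oral gavage from parturition to weaning, so that the pups met the drug through milk. In the in utero oxy (IUO) group, the dams of 6 pups were dosed before mating, from 10 rising to 15 mg/kg/day, and dosing went on through gestation and nursing until weaning. IUO pups were therefore exposed before and after birth, and no group was exposed before birth alone. The litter and the sex of each pup were not given in the sources used here, so p-values measure the spread between these pups, some of which may share a dam.

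AMPA receptors carry most of the fast excitatory current in the brain. They are tetramers of the GluA subunits encoded by Gria1 to Gria4, and editing of the Gria2 transcript makes receptors that contain its product nearly impermeable to calcium. TARPs and cornichons bind the pore-forming subunits, help to bring them to the surface and the synapse, and slow their closing. In the developing forebrain the subunits do not mature together, and Gria4 is known as an early subunit of pyramidal neurons that is later enriched in fast-spiking interneurons.

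Promoter sequence was at hand for 6 of the 10 genes. The 3 shown are those of the genes whose unadjusted p was under 0.05 between IUO and PNO pups, and each gives the 250 bases before the gene start in RefSeq, build GRCr8, 5′ to 3′ on the strand of the gene. Capitals mark a GC box, searched as GGGCGG on both strands and so also written CCGCCC. The windows are chr8:10319882-10320131 on the minus strand for Gria4, chr1:74691004-74691253 on the minus strand for Cacng8 and chr1:211834438-211834687 on the minus strand for Cnih2.
Gria4: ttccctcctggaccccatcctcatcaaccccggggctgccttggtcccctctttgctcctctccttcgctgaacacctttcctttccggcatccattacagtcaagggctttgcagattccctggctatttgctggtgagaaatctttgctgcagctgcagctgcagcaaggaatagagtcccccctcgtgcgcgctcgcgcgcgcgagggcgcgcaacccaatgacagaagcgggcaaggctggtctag
Cacng8: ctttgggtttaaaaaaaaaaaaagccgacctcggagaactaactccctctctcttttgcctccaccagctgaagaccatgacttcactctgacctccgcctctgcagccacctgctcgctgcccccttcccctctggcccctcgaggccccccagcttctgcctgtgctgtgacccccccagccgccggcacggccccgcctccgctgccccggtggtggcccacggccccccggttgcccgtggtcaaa
Cnih2: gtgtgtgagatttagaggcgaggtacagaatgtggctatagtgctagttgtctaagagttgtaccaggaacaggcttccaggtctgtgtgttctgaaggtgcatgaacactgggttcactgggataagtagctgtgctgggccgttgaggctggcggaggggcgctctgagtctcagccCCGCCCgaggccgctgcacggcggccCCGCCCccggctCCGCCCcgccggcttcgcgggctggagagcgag
The Cnih2 window held 3 GC boxes, and the Gria4 and Cacng8 windows held 0. A GC box lay in 30.5% of 33469 promoter windows of this length. The letters CCAAT, searched on both strands, were found 1 time in the Gria4 window and lay in 34.0% of all windows. These matches describe the letters of the windows and were not tested against the expression values.

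The libraries held 18381819 to 26084780 expected counts per pup, and the 9 genes drew 109 to 16140 of them each. The markers of excitatory cortical neurons (among them Slc17a7, Neurod6, Tbr1 and Camk2a) were present in every pup, with a summed level of 759 to 1761 TPM, a level scaled by gene length and library size. Markers of 3 other tissues or cell types varied more than these. The summed level of 8 striatal markers ranged from 173 to 1646 TPM between pups, that of 6 myelin markers from 1381 to 11029 TPM and that of 4 choroid plexus markers from 3.65 to 2686 TPM, and no marker was at 0 in any pup. In bulk tissue, fewer cells of a type and less RNA per cell cannot be told apart. A pair of SAL pups stood at the ends of the range for many of the 9 genes. Replicate 4 of SAL had the lowest TPM of all pups for Gria1, Gria2, Gria3, Cacng8 and Cnih2, and replicate 6 of SAL had the highest for Gria1, Gria2, Gria3, Cacng2 and Cnih3.

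Among the pore-forming subunits, Gria2 was the most abundant in every pup. Its level in SAL was 86.4 TPM in the lowest pup, 123 at the median and 189 in the highest. In PNO it was 90.1, 105 and 139 TPM, and in IUO it was 113, 135 and 143 TPM. The 3 ranges overlapped, and SAL spread more widely than IUO. Gria2 took 40.5% ± 2.45 (SD, n = 18) of the summed TPM of the 4 subunits, with a range of 35.4% to 45.6%. Gria1, whose product is the subunit most studied for its insertion during synaptic potentiation, was the most variable of the 9 genes over all 18 pups. It ranged from 24.9 through a median of 56.4 to 137 TPM in SAL, from 32.35 through 44.2 to 111 TPM in PNO, and from 54.2 through 72.6 to 102 TPM in IUO. The highest pup was 5.49-fold above the lowest, and the coefficient of variation was 56.6% in SAL, 54.4% in PNO and 23.6% in IUO.

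Gria3, which usually pairs with Gria2, was level across the groups. Its lowest, median and highest pups were at 48.8, 65.7 and 86.7 TPM in SAL, at 52.3, 66.7 and 75.4 TPM in PNO, and at 49.6, 67.8 and 79.2 TPM in IUO. Gria4 spread less in IUO than in the other groups. In SAL it lay at 42.9, 49.4 and 65.8 TPM, in PNO at 41.0, 60.2 and 73.2 TPM, and in IUO at 42.6, 45 and 51.7 TPM. In TPM, 4 PNO pups lay above all 6 IUO pups and 2 lay below them. As a share of the 4 subunits, Gria4 took 14.7% ± 1.74 in IUO, 19.99% ± 3.44 in PNO and 17.7% ± 4.26 in SAL (mean ± SD over 6 pups each).

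The cornichon Cnih2, known to promote export of receptors from the endoplasmic reticulum and to slow their deactivation, was the most abundant of the 9 genes per length. Its lowest, median and highest pups were at 291, 342 and 382 TPM in SAL, at 309.7, 320.7 and 364 TPM in PNO, and at 377, 416 and 464 TPM in IUO. Every IUO pup was above every PNO pup in TPM, as for 0.936% of all genes tested (1.46% did not overlap in either direction), whereas the CPM, counts scaled to library size alone, of the same groups overlapped, at 304 to 369 in IUO and 221 to 333 in PNO. Cnih3, the close relative of Cnih2, was at 22.5, 30.7 and 49.8 TPM in SAL, 23.9, 28.1 and 40.2 TPM in PNO, and 20.2, 31.3 and 49.7 TPM in IUO. Its gene model was only 483 bases long and it drew 109 to 295 counts per pup, so its TPM rests on fewer reads than that of the other genes.

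Among the TARPs Cacng2, Cacng3 and Cacng8 alone, Cacng3 had the highest median in every group, Cacng8 the next and Cacng2 the lowest. Cacng3 lay at 57.5, 80.1 and 102 TPM in SAL, at 64.9, 80.4 and 97.1 TPM in PNO, and at 58.5, 82.8 and 92.4 TPM in IUO. Cacng8, the TARP best known from the hippocampus, lay at 34.9, 62.2 and 79.5 TPM in SAL, at 46.1, 52.0 and 67.4 TPM in PNO, and at 60.2, 68.0 and 82.7 TPM in IUO. The IUO pups occupied the upper part of the Cacng8 range, with overlap with both other groups. Cacng2, which encodes stargazin, the founding TARP, lay at 12.1, 20.1 and 33.4 TPM in SAL, at 11.4, 15.5 and 30.0 TPM in PNO, and at 12.6, 19.2 and 29.6 TPM in IUO.

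**Figure D1:**
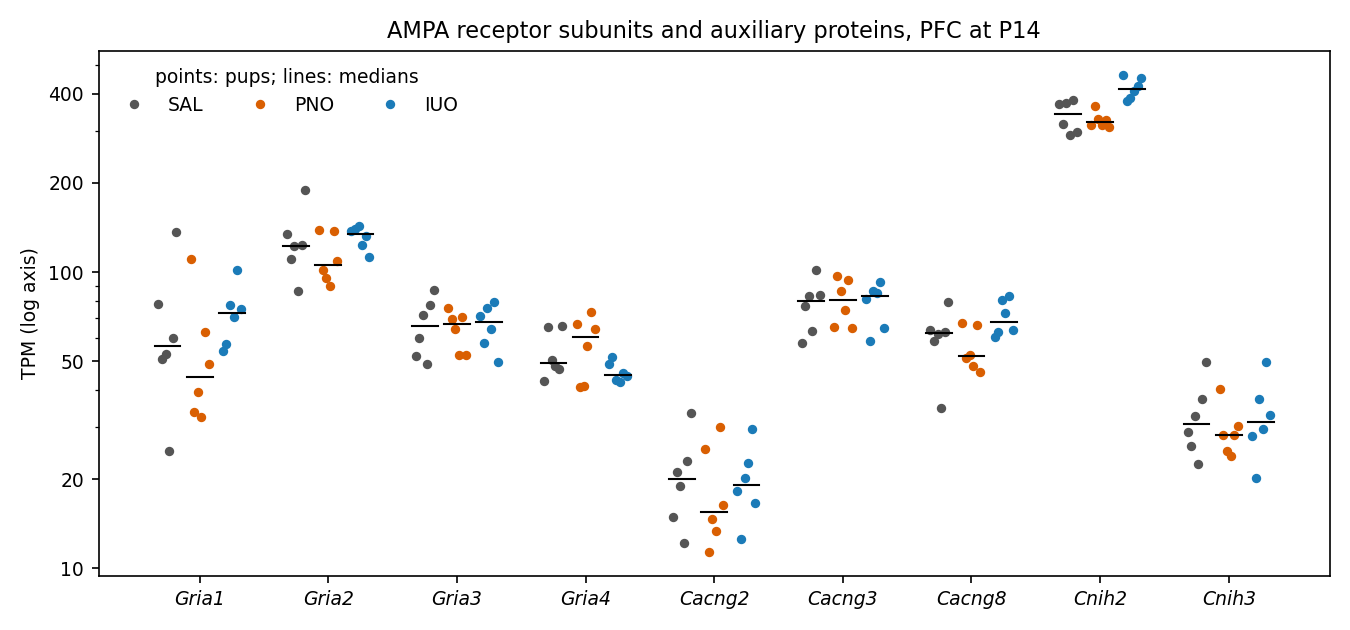
TPM on a log axis of the 9 genes with a row, with 1 point per pup, 6 pups per group and lines at the group medians. Cnih2 lies above all other genes in every group, Gria1 spreads from 24.9 to 137 TPM, and the IUO pups of Gria4 lie close together between 42.6 and 51.7 TPM.

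Ordered by median TPM in SAL, the genes ran Cnih2, Gria2, Cacng3, Gria3, Cacng8, Gria1, Gria4, Cnih3 and Cacng2. Cnih2 did not overlap with Gria2 in any group, and it was higher in 6 of 6 pups of each. The ranges of the other neighbours in this order overlapped in SAL. Within pups, Gria2 was above Cacng3 in 6 of 6 pups of every group, Gria4 was above Cnih3 in 6 of 6 SAL, 6 of 6 PNO and 5 of 6 IUO pups, and Cnih3 was above Cacng2 in 6, 5 and 6 of 6. Cacng3 was above Gria3 in 5, 5 and 6 of 6 pups of SAL, PNO and IUO, and Cacng8 was above Gria1 in 4 of 6 pups of each group. Gria3 was above Cacng8 in 5 of 6 SAL and 6 of 6 PNO pups but in 1 of 6 IUO pups. In IUO, Gria2 and Cacng3 did not overlap, nor did Gria1 and Gria4, with Gria1 the higher in 6 of 6 pups. In PNO, Gria4 and Cnih3 did not overlap. Gria1 was above Gria4 in 4 of 6 SAL pups and in 1 of 6 PNO pups.

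The first comparison was of PNO with SAL pups, and 0 of the 9 genes were called at an adjusted p under 0.05 in edgeR's quasi-likelihood test, the threshold used throughout. The same fit called 0% of all genes tested, 4.5% of all genes had an unadjusted p under 0.05, and DESeq2 and limma-voom called 1 and 0 genes. None of the 9 genes had an unadjusted p under 0.05 in this comparison. Gria4 had the smallest, with a log2 fold change of 0.16 ± 0.12 (SE, edgeR adjusted p = 0.912). Gria1 had the largest change in size, -0.21 ± 0.28 (SE) on the log2 scale, with a 95% interval from -0.80 to 0.38. That value was -0.46 without PNO replicate 1 and 0.04 without SAL replicate 6. The other 7 log2 fold changes were -0.10 for Gria2, 0.05 for Gria3, -0.08 for Cacng2, 0.14 for Cacng3, -0.02 for Cacng8, 0.04 for Cnih2 and -0.07 for Cnih3. The median over the 9 genes was -0.02 against 0.003 over all genes tested.

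IUO was then compared with SAL, which shares its SAL pups with the first comparison. Again 0 of the 9 genes were called by edgeR, which called 0% of all genes, while DESeq2 called 49 and limma-voom 43 genes, none of them among the 9. An unadjusted p under 0.05 was found for 2 of the 9 genes, both higher in IUO, where 6.88% of all genes had one, 3.02% with a higher and 3.87% with a lower level. Cnih2 averaged 327 ± 30.9 CPM (SD, n = 6) in IUO and 265 ± 39.4 CPM (SD, n = 6) in SAL, a log2 fold change of 0.30 ± 0.11 (SE, edgeR adjusted p = 0.561). Cacng8 averaged 52.0 ± 5.51 CPM (SD, n = 6) in IUO and 44.0 ± 6.66 CPM (SD, n = 6) in SAL, a log2 fold change of 0.24 ± 0.10 (SE, edgeR adjusted p = 0.673). Both kept their sign without any 1 of the 12 pups, at 0.23 to 0.35 for Cnih2 and 0.16 to 0.28 for Cacng8. Gria4 stood at -0.22 ± 0.12 (SE, edgeR adjusted p = 0.786). The other 6 log2 fold changes were 0.17 for Gria1, 0.06 for Gria2, 0.01 for Gria3, -0.03 for Cacng2, -0.01 for Cacng3 and 0.02 for Cnih3. The interval of Gria1 ran from -0.42 to 0.75, and its value was 0.021 without SAL replicate 4 and 0.41 without SAL replicate 6. Over the 9 genes the median was 0.02 against -0.01 over all genes tested.

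IUO against PNO separates pups exposed before and after birth from pups exposed after birth alone. edgeR called 0 of the 9 genes, and it called 10 of 15703 genes in all, or 0.0637%. DESeq2 called 0 of the 9 among 436 genes in all, and limma-voom with sample quality weights called 3, Gria1, Gria4 and Cacng8, among 2028 genes in all. In edgeR, 3 of the 9 genes had an unadjusted p under 0.05, where 15.3% of all genes had one, 6.14% with a higher and 9.14% with a lower level in IUO. Gria4 was the lower of them. It averaged 93.1 ± 9.55 CPM (SD, n = 6) in IUO and 121 ± 20.3 CPM (SD, n = 6) in PNO, a log2 fold change of -0.37 ± 0.12 (SE, edgeR adjusted p = 0.152), with a 95% interval from -0.62 to -0.13. It kept its sign without any 1 pup, at -0.43 to -0.33.

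Cacng8 and Cnih2 had the higher levels. Cacng8 averaged 43.3 ± 3.67 CPM (SD, n = 6) in PNO, and its log2 fold change was 0.27 ± 0.10 (SE, edgeR adjusted p = 0.230). Cnih2 averaged 273 ± 39.7 CPM (SD, n = 6) in PNO, and its log2 fold change was 0.26 ± 0.11 (SE, edgeR adjusted p = 0.263). Neither gene passed the adjusted threshold, and their intervals ran from 0.05 to 0.48 and from 0.03 to 0.49. Gria1 had the largest log2 fold change of the 9, 0.38 ± 0.28 (SE, edgeR adjusted p = 0.530), and its interval from -0.21 to 0.96 was also the widest. Without PNO replicate 1 it was 0.62 with an adjusted p of 0.184 in edgeR. Gria2 stood at 0.16 ± 0.10 (SE), Cacng3 at -0.15 ± 0.16 (SE), Cnih3 at 0.09 ± 0.17 (SE), Cacng2 at 0.05 ± 0.21 (SE) and Gria3 at -0.04 ± 0.12 (SE). None of the 9 genes was free of overlap in CPM in any of the 3 comparisons, where 0.108%, 0.745% and 1.66% of all genes were, in the order given here.

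**Figure D2:**
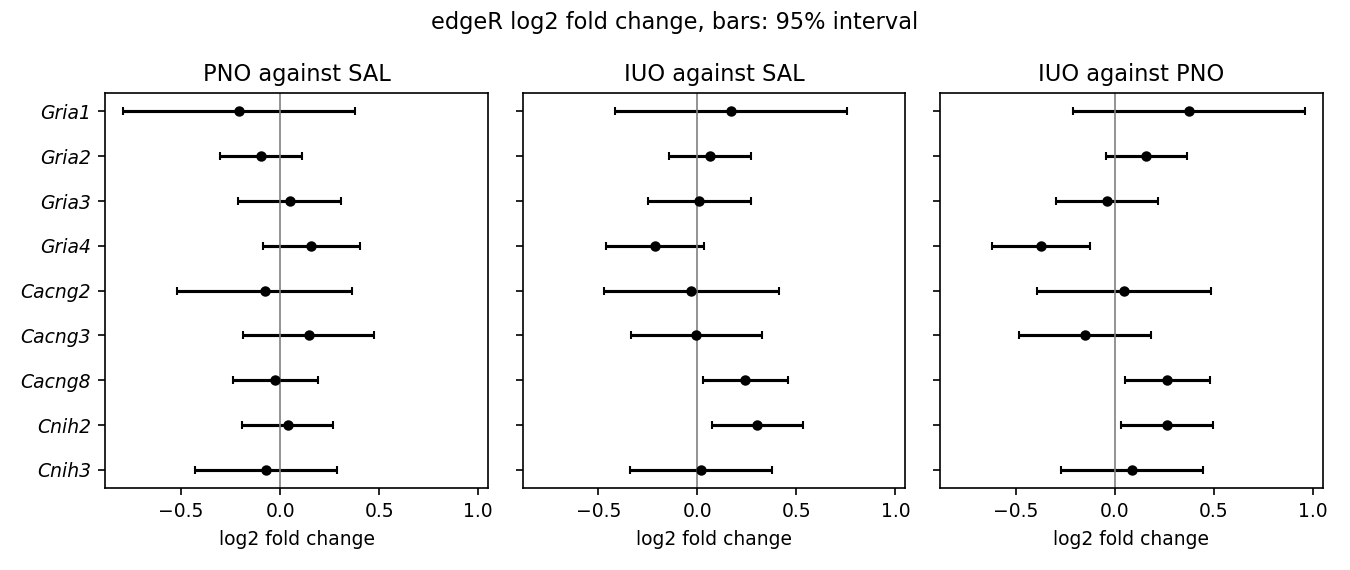
log2 fold changes of the 9 genes from edgeR in the 3 comparisons, with bars for 95% intervals and a line at 0. In IUO against PNO the interval of Gria4 lies below 0 and those of Cacng8 and Cnih2 lie above 0 before adjustment, and Gria1 has the widest interval in each panel.

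Levels of markers of other cells also differed between the same pups. All 6 myelin markers had a lower level in IUO than in PNO with an unadjusted p under 0.05, and 0 of 6 passed after adjustment in edgeR. Their median log2 fold change was -1.37, and their summed level was 1639 to 3783 TPM in IUO, 2117 to 11029 TPM in PNO and 1381 to 5492 TPM in SAL. All 8 striatal markers were at a higher level in IUO than in PNO, at a median log2 fold change of 0.84, and 0 of 8 had an unadjusted p under 0.05. Of 7 interneuron markers, 3 were at a higher and 4 at a lower level in IUO than in PNO, with a median log2 fold change of -0.14 and values up to 0.58 for Lhx6. Of these, 1 was called by edgeR: Pvalb, the calcium-binding protein of fast-spiking interneurons, fell by 2.34 on the log2 scale (SE 0.41, edgeR adjusted p = 0.0356). Its pups lay at 38.0 to 99.3 TPM in PNO and at 9.83 to 21.0 TPM in IUO, with no overlap. With the myelin score as a covariate edgeR called 0 genes in this comparison, so the call of Pvalb was lost. Of 5 microglia markers, 1 had an unadjusted p under 0.05 in IUO against PNO. This was Tmem119, a surface protein of resident microglia, at a log2 fold change of -1.32 ± 0.24 (SE, edgeR adjusted p = 0.0524), with 2.14 to 4.67 TPM in IUO and 8.56 to 10.0 TPM in PNO. These groups did not overlap in TPM, as for 1.46% of all genes, and it stood at -1.34 ± 0.24 (SE, edgeR adjusted p = 0.0997) against SAL, where it lay at 5.32 to 17.3 TPM. The other 4 microglia markers were at a higher level in IUO than in PNO, and the median of the list was 0.02. Of 5 astrocyte markers, 2 were lower in IUO than in PNO at an unadjusted p under 0.05, Gfap (-0.36 ± 0.12, SE) and Aqp4 (-0.29 ± 0.13, SE), and the median of the list was -0.002. All 4 oligodendrocyte precursor markers were at a lower level in IUO than in PNO, and Olig1 (-0.41 ± 0.19, SE) and Olig2 (-0.39 ± 0.16, SE) had an unadjusted p under 0.05. All 4 choroid plexus markers were also at a lower level, at a median of -1.22, and 0 of these 4 and 0 of 2 endothelial markers reached that p. edgeR called 0 genes of these 5 lists. In the comparisons with SAL, the other markers at an unadjusted p under 0.05 were Mog (0.75 ± 0.34, SE) and P2ry12 (-0.37 ± 0.16, SE) in PNO and Pvalb (-1.55 ± 0.41, SE) in IUO. Excitatory neuron markers had a median log2 fold change of 0.26 between IUO and PNO with 0 of 5 under an unadjusted p of 0.05. With the myelin score as a covariate, Gria4 stood at -0.35, Cacng8 at 0.10, Cnih2 at 0.36 and Gria1 at -0.02 on the log2 scale between IUO and PNO, all with adjusted p from 0.415 to 0.994 in edgeR. With the striatal score they stood at -0.28, 0.26, 0.21 and 0.41. In IUO against SAL the striatal score gave -0.13, 0.24, 0.26 and 0.20 for them, beside -0.22, 0.24, 0.30 and 0.17 without it. The edgeR adjusted p in that fit ran from 0.563 to 0.910. The part of these cell types in the levels was not tested beyond these fits.

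Ratios of genes within a pup need no library size, and they show the make-up of the receptor transcripts. Of 18 ratio tests, 6 ratios in 3 comparisons, 1 passed. The ratio of Gria4 to Gria2 in TPM was 0.303 in the lowest IUO pup, 0.350 at the median and 0.395 in the highest. In PNO it was 0.404, 0.507 and 0.623, and in SAL it was 0.318, 0.398 and 0.587. Every IUO pup was below every PNO pup, and SAL spanned most of both ranges. The log2 ratio fell by 0.52 (SE 0.11) in IUO against PNO, with an exact two-sided permutation p of 0.00216, the smallest that 6 against 6 pups can give, and an adjusted p of 0.0390 over the 18 tests. Among all genes, 1.43% had a ratio to Gria2 that did not overlap between IUO and PNO, and 1.32% had one that was lower in IUO. Without any 1 IUO pup the adjusted exact p was 0.0779, and without any 1 PNO pup it was 0.0390, with differences from -0.59 to -0.46. The groups stayed free of overlap in each of these runs. With so few pups the exact p moves only in steps, so its change alone does not show a smaller difference. The same ratio was -0.27 ± 0.16 (SE) between IUO and SAL, with an adjusted exact p of 0.484, and 0.25 ± 0.18 (SE) between PNO and SAL, with the same adjusted exact p of 0.484.

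The other ratios did not pass. Gria1 to Gria2 had medians of 0.473 in SAL, 0.431 in PNO and 0.556 in IUO, and a single PNO pup at 0.797 was the highest of all 18. Gria3 to Gria2 had medians of 0.552 in SAL, 0.562 in PNO and 0.519 in IUO. Cacng3 to Cacng8 had medians of 1.33 in SAL, 1.48 in PNO and 1.10 in IUO, and its log2 difference of -0.39 ± 0.15 (SE) between IUO and PNO had an exact p of 0.0325 and an adjusted exact p of 0.292. That adjusted exact p was 0.0390 without PNO replicate 1. Cacng2 to Cacng8 and Cnih3 to Cnih2 had adjusted exact p-values of 0.484 to 0.727 in the 3 comparisons.

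**Figure D3:**
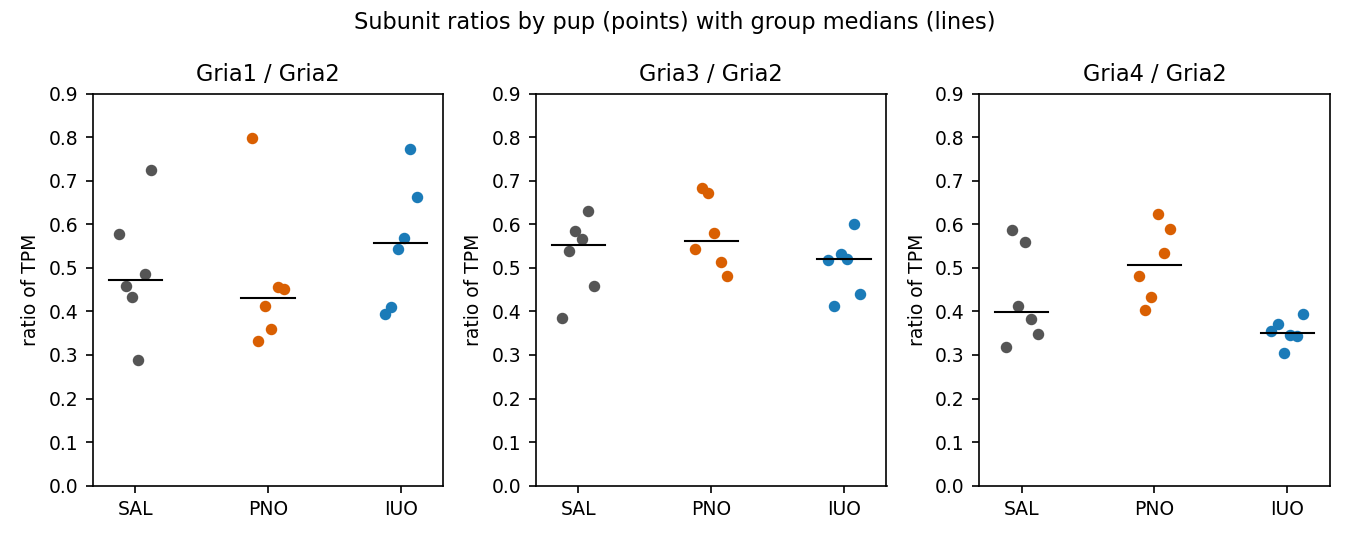
Ratios of Gria1, Gria3 and Gria4 to Gria2 in TPM, with 1 point per pup, 6 pups per group and lines at the group medians. The 6 IUO pups of the Gria4 to Gria2 panel lie between 0.303 and 0.395, below all PNO pups at 0.404 to 0.623, and the other panels overlap in all groups.

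The ratio of Gria4 to Gria2 was set against 4 scores over the 18 pups, and 2 relations passed for Pearson's r. Group means were not removed, so these pooled values also carry the difference between groups for which the ratio was chosen. The mean log2 ratio was -1.51 in IUO, -1.24 in SAL and -0.99 in PNO. The mean myelin score had the same order, at 7.99, 8.55 and 9.23. With the myelin score, Pearson's r was 0.61 (permutation p = 0.00842, adjusted p = 0.0336 over 4 relations) and Spearman's rho was 0.70 (permutation p = 0.00173, adjusted p = 0.00692). Without the 2 pups most distant from the median of the score, r was 0.60. Within groups r was 0.64 in SAL, -0.06 in PNO and 0.36 in IUO, so it did not hold within PNO. With the striatal score r was -0.56 (permutation p = 0.0168, adjusted p = 0.0336) and rho -0.48 (permutation p = 0.0445, adjusted p = 0.0594), with r at -0.49 without the 2 farthest pups and -0.50, -0.70 and 0.19 within SAL, PNO and IUO. With the excitatory neuron score r was -0.27 (permutation p = 0.278) and rho -0.39 (permutation p = 0.113). With a length score of the library, described further on, r was -0.40 (permutation p = 0.101) and rho -0.52 (permutation p = 0.0289, adjusted p = 0.0579). These relations were chosen after the ratio had been seen to differ, and their part in the difference was not tested.

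The genes around these receptors were examined from 5 lists that held 41 genes, of which 39 were tested. edgeR called 0 of the 39 in any comparison. An unadjusted p under 0.05 was found for 1 gene in PNO against SAL, for 3 in IUO against SAL, all lower in IUO, and for 8 in IUO against PNO, 4 higher and 4 lower, where 4.5%, 6.88% and 15.3% of all genes had one. At that level 6.14% of all genes were higher in IUO than in PNO, and 3 of 9 other auxiliary proteins were. They were the TARPs Cacng4 (0.25 ± 0.08, SE, on the log2 scale) and Cacng5 (0.75 ± 0.33, SE), and Shisa7 (0.20 ± 0.08, SE). Cacng5 was also the 1 gene of the first comparison, at -0.93 ± 0.33 (SE), and its SAL pups ranged from 7.96 to 56.0 TPM against 5.56 to 15.7 TPM in PNO. Shisa8, a relative of Shisa9, stood at -0.82 ± 0.38 (SE) between IUO and SAL and at -0.37 ± 0.38 (SE) between IUO and PNO.

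Among the genes of receptor assembly and editing, 2 of 7 were lower in IUO than in PNO at an unadjusted p under 0.05. Of all genes tested, 9.14% were lower at that level. Sacm1l, a phosphoinositide phosphatase of the endoplasmic reticulum, was at 19.1 to 23.1 TPM in IUO, 21.1 to 30.9 TPM in PNO and 24.3 to 29.9 TPM in SAL. Its log2 fold change was -0.39 ± 0.09 (SE, edgeR adjusted p = 0.0732) against PNO, the smallest adjusted p of the 39 genes, and -0.32 ± 0.09 (SE, edgeR adjusted p = 0.366) against SAL. Abhd6, a hydrolase known to hold back surface delivery of AMPA receptors, stood at -0.30 ± 0.09 (SE) against PNO, with an edgeR adjusted p of 0.129, and at -0.30 ± 0.09 (SE) against SAL, with an edgeR adjusted p of 0.424. Of 10 anchoring and trafficking genes, Grip1, a scaffold that binds GluA2, was the 1 with an unadjusted p under 0.05 in IUO against PNO, at 0.34 ± 0.15 (SE) on the log2 scale. Akap5, which anchors kinase A near the receptors, had the second highest log2 fold change of the lists, 0.46 ± 0.33 (SE), and its PNO range of 6.68 to 35.4 TPM enclosed the IUO range of 16.9 to 29.8 TPM. Of 5 extracellular partners, the secreted protein Olfm1 was lower at that level (-0.34 ± 0.12, SE). The median log2 fold change of the 39 genes was -0.004, 0.01 and 0.02 in the 3 comparisons, beside 0.003, -0.01 and -0.0005 over all genes tested.

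Between pups of the same group, the members varied together in part. Over 36 pairs of the 9 genes, with group means removed, 0 passed an adjusted permutation p of 0.05 for Pearson's r and 2 passed for Spearman's rho. Gria3 and Cacng3 had r = 0.72 (permutation p = 0.00147, adjusted p = 0.0529) and rho = 0.72 (permutation p = 0.00172, adjusted p = 0.0353), with r = 0.64 without the 2 farthest pups and 0.81, 0.61 and 0.80 within SAL, PNO and IUO. Gria1 and Cacng8 had r = 0.68 (permutation p = 0.00778, adjusted p = 0.0700) and rho = 0.69 (permutation p = 0.00196, adjusted p = 0.0353), with r = 0.41 without the 2 farthest pups and 0.87, 0.27 and 0.75 within the groups. Cnih2 and Gria1 ran against each other, at r = -0.65 with an adjusted permutation p of 0.0862 in log2 CPM, and in log2(TPM + 1) their r was -0.03. Cnih2 and Cacng2 had r = -0.58 in log2 CPM and -0.07 in log2(TPM + 1). Gria4 had r between -0.50 and 0.20 with each of the other 8 genes in log2 CPM. In log2(TPM + 1) its r ran from -0.47 with Cnih2 to 0.57 with Cacng2.

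**Figure D4:**
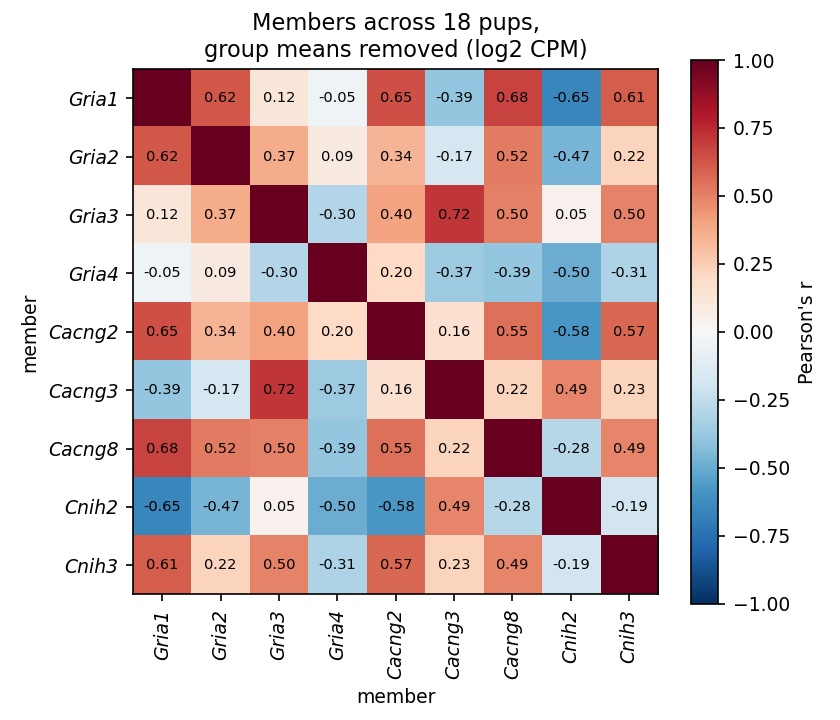
Pearson's r between the log2 CPM of the 9 genes over 18 pups after the group means were removed, with the value printed in each cell and colour from -1 to 1. Gria3 with Cacng3 (0.72) and Gria1 with Cacng8 (0.68) are the highest pairs, and Cnih2 is negative with Gria1 and with Cacng2 on this scale, where log2(TPM + 1) gave -0.03 and -0.07.

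Of 27 relations with the 3 cell type scores, 4 passed an adjusted permutation p of 0.05 for Pearson's r and 5 for Spearman's rho. Group means were not removed for these relations. The excitatory neuron score rose with Cacng2 (r = 0.75, rho = 0.76, adjusted permutation p = 0.00810), with Gria3 (r = 0.71, rho = 0.70, adjusted permutation p = 0.0103) and with Cacng3 (r = 0.63, rho = 0.65, adjusted permutation p = 0.0352). Without the 2 farthest pups these r were 0.70, 0.62 and 0.53, and within SAL, PNO and IUO they were positive for all 3 genes, from 0.46 to 0.99. The myelin score ran against Cacng8 (r = -0.67, rho = -0.85, adjusted permutation p = 0.0170), at -0.76 without the 2 farthest pups and at -0.62, -0.34 and -0.81 within SAL, PNO and IUO. The relation that passed for rho alone was that of Gria1 with the myelin score (rho = -0.61, adjusted permutation p = 0.0450), where r was -0.55 (adjusted permutation p = 0.0511) and stood at -0.86, 0.23 and -0.97 within SAL, PNO and IUO. Gria4 and the striatal score had r = -0.57 with an adjusted permutation p of 0.0511, and within groups r was -0.84, -0.69 and 0.82, so its sign turned in IUO.

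Gria1 also followed a property of the whole library. A length score was computed for each pup as the correlation, across genes, of the deviation from the gene mean with the log2 length of the gene model, so that a pup with a high score had relatively more reads on long genes. This score was added after the data had been seen, and genes are not independent replicates within it. It ranged from -0.19 in PNO replicate 2 to 0.26 in SAL replicate 6, with medians of -0.01 in SAL, -0.11 in PNO and 0.04 in IUO. Gria1 had r = 0.90 and rho = 0.86 with it over 18 pups, both with a permutation p of 1e-05, the smallest that 100000 permutations can give, and an adjusted p of 9e-05 over 9 genes. Without the 2 farthest pups r was 0.83, and within groups it was 0.92 in SAL, 0.95 in PNO and 0.68 in IUO. Cacng2 had r = 0.80 (adjusted permutation p = 0.000315) and rho = 0.78 (adjusted permutation p = 0.00126), with r at 0.76 without the 2 farthest pups. Gria2 had r = 0.67 (adjusted permutation p = 0.00711) and rho = 0.67 (adjusted permutation p = 0.00688), with r at 0.58 without those pups and at 0.94, 0.76 and -0.20 within SAL, PNO and IUO. Cacng8 had r = 0.55 (adjusted permutation p = 0.0331) and rho = 0.67 (adjusted permutation p = 0.00688), with r at 0.65 without those pups. Cnih3 passed for r (0.55, adjusted permutation p = 0.0331) but not for rho (0.46, adjusted permutation p = 0.105), and its r was 0.39 without those pups. Cnih2 had r = -0.48 (adjusted permutation p = 0.0659) and rho = -0.26 (adjusted permutation p = 0.449), with r at -0.02 without those pups. Group means were not removed from these pooled values, and within SAL, PNO and IUO its r was -0.75, -0.94 and -0.58. Gria3 and Cacng3 had r of 0.18 and -0.34, which did not pass, and Gria4 had r = -0.02 (adjusted permutation p = 0.949), with 0.04 within SAL, 0.63 within PNO and -0.77 within IUO. These r did not follow the order of the genes by length. The gene model was 2366 to 2389 bases long for Gria1, 6739 for Gria2, 5030 for Gria3 and 483 for Cnih3.

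With the length score as a covariate, Gria1 stood at 0.12 on the log2 scale between IUO and PNO with an edgeR adjusted p of 0.713. In the same fit Cnih2 stood at 0.39 with an edgeR adjusted p of 0.0364, which made it the 1 gene of the 9 to be called, among 82 called genes in all. Gria4 stood at -0.40 with an edgeR adjusted p of 0.116 and Cacng8 at 0.19 with one of 0.319. The part of the length score in these levels was not tested beyond this fit.

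**Figure D5:**
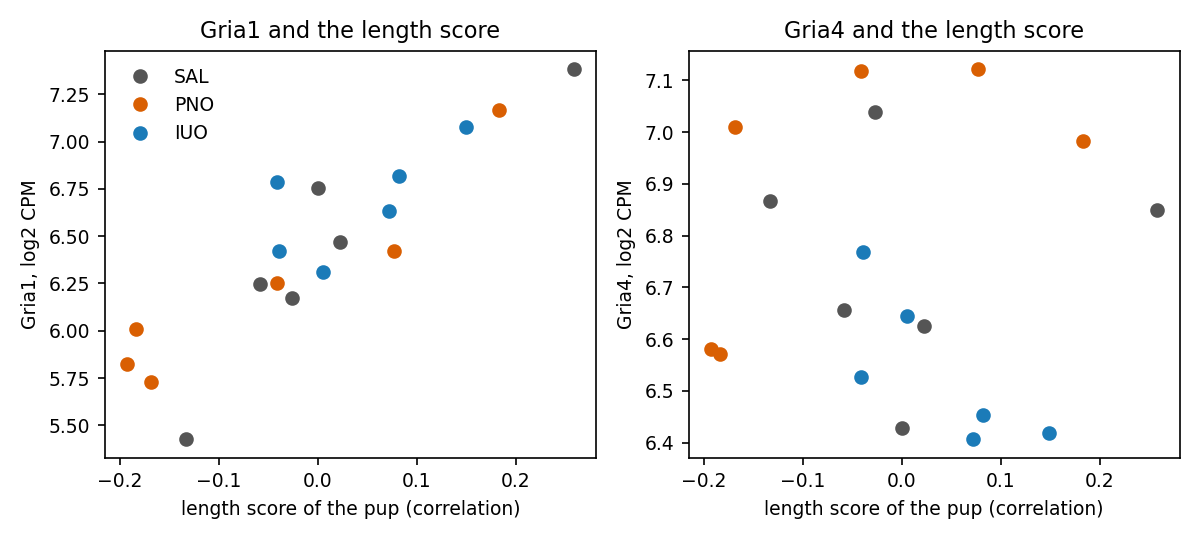
log2 CPM of Gria1 and of Gria4 against the length score of the pup, with 1 point per pup and colours for SAL, PNO and IUO. Gria1 rises with the score in all 3 groups (r = 0.90 over 18 pups), and Gria4 has r = -0.02 over all pups, with 0.63 within PNO and -0.77 within IUO.

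The genes whose log2 CPM was most like that of Gria1 over the 18 pups were Tcf20 (r = 0.97), Nr3c2, the mineralocorticoid receptor (r = 0.97), and Ddx6, an RNA helicase (r = 0.96). For Gria2 they were Zfp207 (r = 0.90), the splicing factor Srsf10 (r = 0.90) and the RNA helicase Ddx5 (r = 0.89). These are the highest of 15703 genes and share the libraries and their depth with Gria1 and Gria2, and they are given as a description.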

How the data were processed

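Total RNA from the PFC of 18 P14 pups (6 SAL, 6 PNO, 6 IUO) was sequenced by the authors, who deposited 1 table per pup with expected counts, TPM, FPKM and an effective gene length for each gene. Alignment, quantification and genome build are not given in the sources used here. For the tests, the deposited expected counts were rounded to integers; the deposited TPM (scaled by the authors for gene length and library size) gave levels and ratios, and the deposited FPKM was not used. Genes were filtered with filterByExpr by group, normalized by TMM and tested with edgeR 4.0.16 (glmQLFit, glmQLFTest; R 4.3.3) in 1 model of all 18 pups, with Benjamini-Hochberg adjustment over all 15703 genes and a threshold of 0.05. The study's methods name no RNA-seq test. Intervals use a 95% level, and a prior count of 2 was added for log2 CPM. Ratios were tested by exact permutation of 6 against 6 pups, correlations with 100000 permutations (within groups for pairs of genes), in Python 3.11.15 with scipy 1.17.1. Relations with scores kept the group means and were permuted over all pups.

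Cell type scores are means of log2 CPM over the markers named. The 9 members with a row are named in every comparison. Of the other lists, genes with an unadjusted p under 0.05 and the 2 highest and 2 lowest between IUO and PNO are named, with the 3 genes most like Gria1 and Gria2; some genes of the lists are counted but not reported by name here. The members and lists were chosen with earlier results of these data known. Gsg1l and Lrrtm1 of the pathway lists and Pecam1 of the endothelial markers were not analysed here. Alternatives were DESeq2 1.42.0, limma-voom and limma 3.58.1 on log2(TPM + 1) and log2(TPM + 0.1), other size factors and filters, covariates, the replicate number as a block and leaving out each pup. The scripts were tested on simulated data. No 2 libraries of a group agreed within sampling noise.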

Additional observations from a re-analysis of the deposited data

Results flagged for a closer look

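Of 45 groups of 6 values checked (levels and ratios of the 9 genes), 3 held a pup far from the others, where chance alone flags about 1 in 20 groups. Cacng8 in SAL replicate 4 was 34.9 TPM, and the nearest SAL pup was 58.6 TPM, a gap of 0.629 of the log2 range of the group. The ratio of Gria1 to Gria2 in PNO replicate 1 was 0.797, and the nearest PNO pup was 0.456, a gap of 0.636 of the log2 range. The ratio of Cnih3 to Cnih2 in SAL replicate 6 was 0.167, and the nearest SAL pup was 0.0975, a gap of 0.700 of the log2 range. SAL replicate 6 and PNO replicate 1 also had the highest length scores, 0.26 and 0.18, and SAL replicate 4 had the lowest of SAL, -0.13.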

How the results depend on the processing

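The number of genes called depended on the test. In PNO against SAL, DESeq2 called 1 gene in place of 0. In IUO against SAL, DESeq2 called 49, limma-voom 43 and edgeR with the length score as a covariate (added after the data had been seen) 17 in place of 0. In IUO against PNO the 10 calls became 19 without library size normalization, 65 with the striatal score, 0 with the myelin score, 82 with the length score, 72 with the 12 pups of those groups alone, 436 in DESeq2 and 2028 in limma-voom. Leaving out 1 pup gave 0 to 0 calls in PNO against SAL, 0 to 1 in IUO against SAL and 1 to 95 in IUO against PNO, with 1 call without PNO replicate 4, PNO replicate 6 or IUO replicate 3 and 95 without PNO replicate 5. Of the 9 genes, limma-voom called 3 in IUO against PNO, Gria1 (0.62, limma adjusted p = 0.0417), Gria4 (-0.44, limma adjusted p = 0.0223) and Cacng8 (0.33, limma adjusted p = 0.0275), and the length score fit called 1, Cnih2 (0.39). No other alternative run called any of the 9, in any comparison, and 0 to 0 were called when 1 pup was left out.

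Signs turned for some log2 fold changes, none of which had passed the threshold. In PNO against SAL, the myelin score gave 0.078 for Gria1, 0.14 for Cacng2, 0.074 for Cacng8, -0.012 for Cnih2 and 0.090 for Cnih3. The length score gave 0.039 for Gria1, 0.074 for Cacng2, 0.032 for Cacng8, -0.046 for Cnih2 and 0.029 for Cnih3. TPM with a pseudocount of 1 or 0.1 gave -0.028 and -0.028 for Gria3 and -0.043 and -0.043 for Cnih2, no normalization gave -0.010 for Cnih2 and limma-voom 0.0038 for Cnih3. In IUO against SAL, Gria3 became -0.0011 without a filter, -0.035 with the myelin score and -0.00077 with the length score. Cnih3 became -0.087 and -0.017 with the myelin and length scores. Cacng2 became 0.10 with the striatal score and 0.084 in limma-voom, and Cacng3 became 0.027 and 0.045 there, 0.018 with the length score and 0.011 and 0.011 with TPM. In IUO against PNO, the myelin score gave -0.017 for Gria1, -0.33 for Cacng2 and -0.18 for Cnih3, the length score -0.17 for Cacng2 and -0.046 for Cnih3, and Gria3 became 0.0016 without normalization and 0.045 and 0.046 with TPM. The cause was not tested.

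Leaving out 1 pup turned other signs. In PNO against SAL the values ran from -0.46 to 0.041 for Gria1, -0.020 to 0.11 for Gria3, -0.23 to 0.039 for Cacng2, -0.11 to 0.018 for Cacng8, -0.039 to 0.093 for Cnih2 and -0.13 to 0.018 for Cnih3. In IUO against SAL they ran from -0.066 to 0.074 for Gria3, -0.15 to 0.085 for Cacng2, -0.095 to 0.098 for Cacng3 and -0.11 to 0.11 for Cnih3. In IUO against PNO they ran from -0.085 to 0.026 for Gria3, -0.071 to 0.19 for Cacng2 and -0.040 to 0.18 for Cnih3. Among log2 ratios in PNO against SAL, Gria1 to Gria2 ran from -0.26 to 0.032, Cacng2 to Cacng8 from -0.18 to 0.033 and Cnih3 to Cnih2 from -0.20 to 0.070. Other log2 fold changes, none past the threshold, kept their sign but moved by over 1.5 times. They ran from 0.16 to 0.28 for Cacng8 in IUO against SAL, from 0.28 to 0.62 for Gria1 in IUO against PNO and 0.021 to 0.41 in IUO against SAL, -0.14 to -0.019 for Gria2 in PNO against SAL and 0.015 to 0.14 in IUO against SAL, 0.098 to 0.22 for Gria4 in PNO against SAL, and 0.048 to 0.25 for Cacng3 in PNO against SAL and -0.25 to -0.054 in IUO against PNO. The log2 ratio of Gria4 to Gria2 ran from -0.35 to -0.17 in IUO against SAL. With log2(TPM + 1), r turned to 0.43 for Gria1 and Gria4, 0.063 for Gria1 and Cacng3, 0.14 for Gria2 and Cacng3, 0.16 for Gria3 and Gria4, 0.28 for Gria4 and Cacng8, 0.18 for Gria4 and Cnih3, 0.13 for Cacng8 and Cnih2, 0.11 for Cnih2 and Cnih3, 0.062 for Gria3 and the striatal score and 0.099 for Gria4 and the excitatory score.

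The replicate numbers did not pair the pups. Same-numbered pups had r, across genes, from -0.06 to 0.49 in PNO and SAL, -0.13 to 0.24 in IUO and SAL and -0.30 to 0.44 in IUO and PNO, and the own number was the best match for 2, 0 and 2 of 6 pups. With the replicate block, the calls in IUO against PNO became 6, Cacng3 became 0.018 in IUO against SAL, and the log2 ratio of Gria4 to Gria2 kept its difference of -0.52 with an adjusted exact p of 0.45, in a sign-flip test whose smallest p is 0.0312. Depth limits Cnih3 most, at 109 counts in its lowest pup.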
